A study of Mus musculus with 18 samples.

Results

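The 10 genes described here are *Fos*, *Fosb*, *Jun*, *Junb*, *Egr1*, *Ier2*, *Atf3*, *Dusp1*, *Btg2* and *Zfp36*, a panel of immediate-early genes that also respond to tissue dissociation. They were chosen by name, with earlier results of these data known. For each gene the counts of all of its transcripts in the deposited table were summed, which gave 10 of 35823 gene symbols. RNA was counted in brain cells sorted with magnetic beads from mice aged 10 months, either wild type (WT) or homozygous for the *Atxn2*-CAG100-KIN allele (KIN), a knock-in of an expanded CAG repeat into the ataxin-2 gene, as a model of spinocerebellar ataxia type 2. Microglia were selected with beads against CD11b, astrocytes with beads against ACSA-2, and neurons as the cells left unlabelled by a cocktail of antibodies against other cell types. Each combination of fraction and genotype had 3 libraries, 18 in all. Mice of both genotypes were of the C57BL/6 background, and WT and KIN mice were littermates in same-sex pairs. Both male and female pairs were sequenced, and the fits did not take sex into account. Every brain was first dissociated with enzymes under heating, in both genotypes, and fractions were then taken in sequence from the dissociated brain. Microglia came first, then astrocytes, then neurons, so order and handling went with fraction. Their part in differences between fractions was not tested. There were no libraries from undissociated tissue among those analysed, so the share of each level that arose during isolation was not tested.

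Immediate-early genes are transcribed within minutes of a stimulus, without new protein synthesis, when kinases such as ERK and p38 activate factors already bound at their promoters, chiefly SRF with its ELK partners and CREB. FOS and JUN family proteins pair to form the transcription factor AP-1, and EGR1 is a zinc finger factor bound at GC-rich sites. Other members restrain the response: DUSP1 removes phosphate from MAP kinases, and ZFP36 (tristetraprolin) binds AU-rich elements and marks cytokine and immediate-early mRNAs for decay. In brain these genes are known as markers of neuronal activity, and in sorted glia they are known to be induced by warm enzymatic dissociation.

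The libraries held 761481 to 3296398 counts, of which the 10 most abundant transcripts took 75.8 to 85.4%, and the 10 members together had 120 to 3636 counts per library. Levels are given as CPM, the counts of a gene scaled to a common library size, normalised over all 18 libraries, and 3 counts, taken as the detection floor, corresponded to 0.863 to 3.99 CPM. The WT neuronal libraries were the shallowest, with 761481 to 1017972 counts. The markers of each fraction bore out its label in part: the 6 microglial markers summed to 432 to 742 CPM in microglia and to at most 9.70 and 11.3 CPM in astrocytes and neurons, where *Aif1*, *Tmem119* and *P2ry12* had 0 counts in all 6 neuronal libraries. The 6 astrocyte markers summed to 269 to 639 CPM in astrocytes and to at most 23.3 CPM elsewhere. The 7 neuronal markers summed to 101 to 165 CPM in the neuronal fraction, but also to 31.7 to 109 CPM in astrocytes. *Tubb3*, a tubulin gene, and *Gad1*, of GABA synthesis, carried the neuronal sum, with means of 83.8 and 16.7 CPM against 11.5 and 2.17 CPM in astrocytes. Over both genotypes together, the other 5 (*Snap25*, *Syt1*, *Rbfox3*, *Slc17a7* and *Map2*) went against the label. Their means were 1.02 to 14.9 CPM in the neuronal fraction, each below its mean in astrocytes (6.27 to 15.4 CPM). In astrocytes 5 of the 7 were called lower in KIN, so this pooled order need not hold within each genotype. Haemoglobin transcripts of red blood cells reached 110 to 505 CPM in the neuronal fraction against at most 23.7 CPM in glia. The astrocyte fraction further held 291 to 468 CPM of the 5 oligodendrocyte markers, and the library labelled neurons WT replicate 2 held 237 CPM of them. In bulk samples of this kind, fewer cells of a type and less RNA per cell cannot be told apart.

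The window from 250 bases before to 50 bases after the start of each member's GENCODE canonical transcript (GRCm39) was searched on both strands for letters known from such promoters. The whole cAMP response element TGACGTCA stood in 3 of 10 members (*Ier2*, *Dusp1* and *Btg2*), against 2.45% of 21757 protein-coding promoters, and its first letters TGACG, which overlap the whole element, in 8 of 10 members against 22.6%. The EGR site GCGNGGGCG was found in *Fosb* and *Btg2* (6.22% of all promoters), and TATAAA in *Fos* and *Junb* (13.2%). The AP-1 letters TGANTCA (7.15%) and the SRF element known as the CArG box (1.54%) were found in 0 of 10 windows, which says only that these letters are not in these windows. The 250 bases before the start are shown for the 6 members with such a match, as the stretches of DNA that tell the members apart by promoter letters. Sequences run 5′ to 3′ in the direction of transcription, and capitals mark TGACGTCA, GCGNGGGCG or TATAAA. Positions are *Fos* chr12:85520408-85520657, plus strand, *Fosb* chr7:19043977-19044226, minus strand, *Junb* chr8:85705348-85705597, minus strand, *Ier2* chr8:85389484-85389733, minus strand, *Dusp1* chr17:26727494-26727743, minus strand and *Btg2* chr1:134006859-134007108, minus strand.
Fos: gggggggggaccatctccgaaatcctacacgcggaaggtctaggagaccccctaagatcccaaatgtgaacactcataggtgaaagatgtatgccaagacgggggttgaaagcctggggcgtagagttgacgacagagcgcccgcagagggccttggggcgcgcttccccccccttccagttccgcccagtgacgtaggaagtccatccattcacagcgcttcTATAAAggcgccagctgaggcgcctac
Fosb: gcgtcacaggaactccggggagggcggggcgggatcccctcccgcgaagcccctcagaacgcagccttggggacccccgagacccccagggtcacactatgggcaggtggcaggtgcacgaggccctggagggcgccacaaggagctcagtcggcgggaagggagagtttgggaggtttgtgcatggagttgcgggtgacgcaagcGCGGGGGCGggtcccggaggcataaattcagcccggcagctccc
Junb: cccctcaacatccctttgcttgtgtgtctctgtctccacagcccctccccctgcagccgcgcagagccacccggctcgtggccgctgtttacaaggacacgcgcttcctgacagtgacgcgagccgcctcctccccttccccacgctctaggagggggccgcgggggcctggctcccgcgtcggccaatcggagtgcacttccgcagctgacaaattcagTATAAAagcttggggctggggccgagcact
Ier2: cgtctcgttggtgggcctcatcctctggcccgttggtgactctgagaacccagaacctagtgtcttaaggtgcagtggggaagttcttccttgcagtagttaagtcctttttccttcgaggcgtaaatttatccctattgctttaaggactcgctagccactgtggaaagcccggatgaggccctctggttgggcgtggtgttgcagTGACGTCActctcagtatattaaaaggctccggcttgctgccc
Dusp1: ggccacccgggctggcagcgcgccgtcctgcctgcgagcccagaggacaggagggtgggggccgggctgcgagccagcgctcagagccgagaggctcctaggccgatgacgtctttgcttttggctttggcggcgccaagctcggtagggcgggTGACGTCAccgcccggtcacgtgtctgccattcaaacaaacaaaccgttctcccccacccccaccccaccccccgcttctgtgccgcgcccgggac
Btg2: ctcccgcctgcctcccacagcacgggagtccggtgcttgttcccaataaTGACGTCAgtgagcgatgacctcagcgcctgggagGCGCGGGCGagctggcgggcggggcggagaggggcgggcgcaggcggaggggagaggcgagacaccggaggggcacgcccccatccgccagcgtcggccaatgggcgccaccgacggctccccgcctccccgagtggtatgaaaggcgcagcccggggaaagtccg
Counting the start base as 0, the whole element began 43 bases before it in *Ier2*, 96 bases before it in *Dusp1* and 201 bases before it in *Btg2*. TATAAA began 27 bases before the start in *Fos* and 30 bases before it in *Junb*. The matches are a description of these letters and carry no measurement of binding.

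All 10 members had their highest levels in the microglial fraction. Summed over the members, microglia reached 1019.6 to 1176 CPM, astrocytes 64.9 to 140 CPM and neurons 151 to 188 CPM. Every one of the 6 microglial libraries exceeded every astrocyte and every neuronal library for each member. Between astrocytes and neurons the order differed by gene: *Egr1* was higher in all neuronal than in all astrocyte libraries, and for the other 9 members the libraries of the 2 fractions overlapped.

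**Figure D1:**
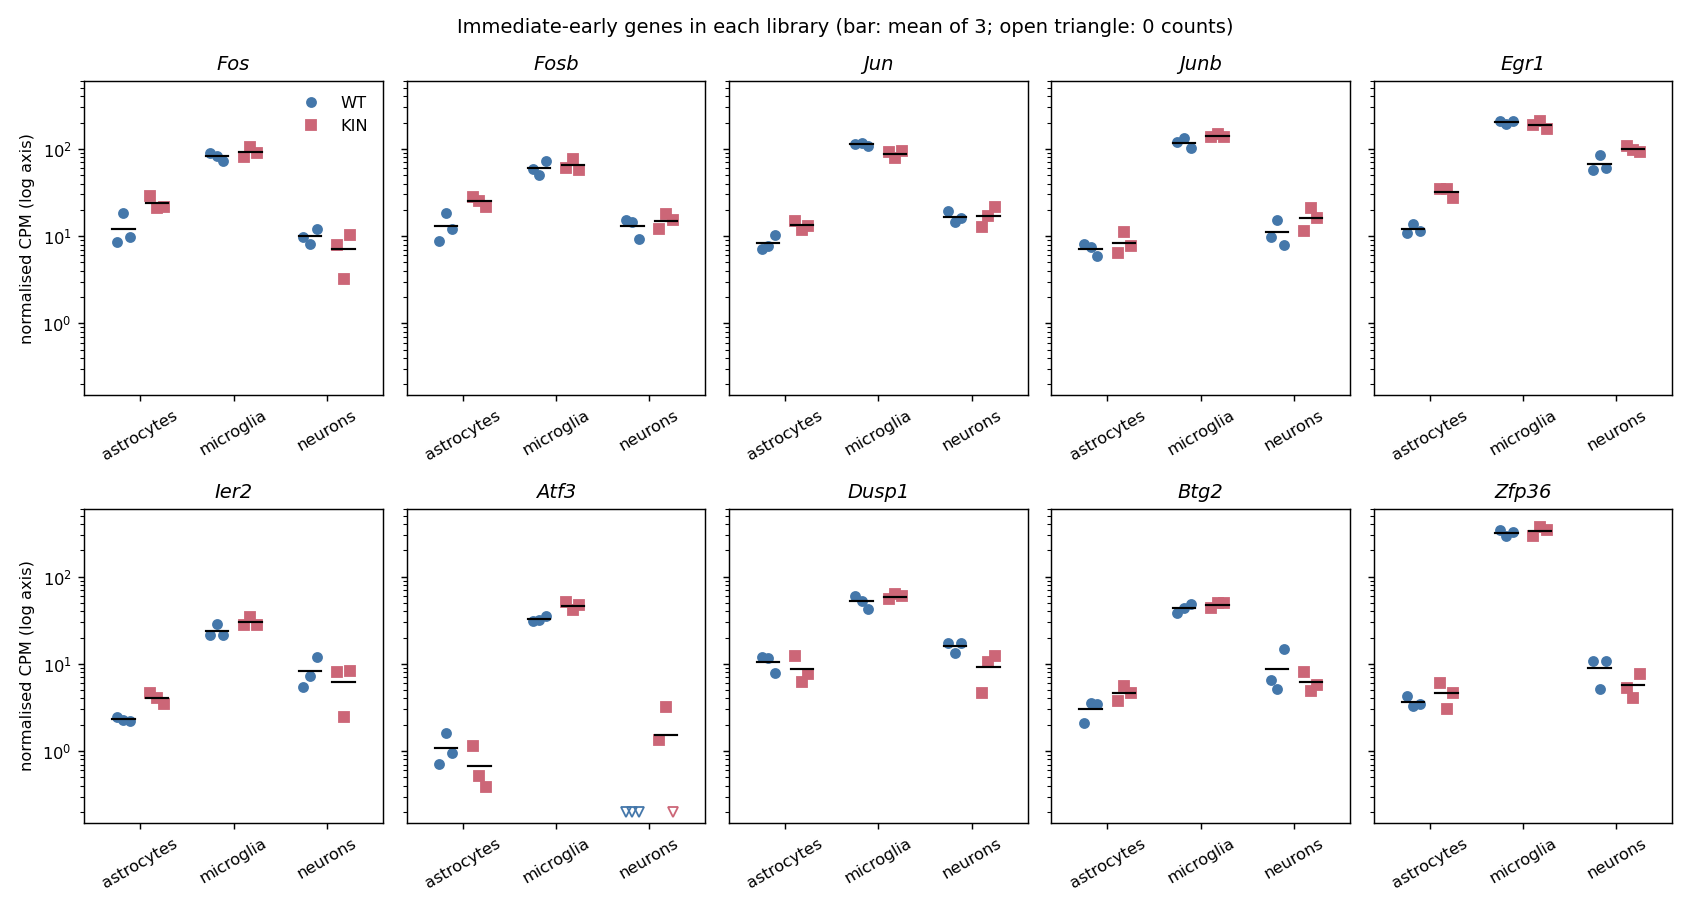
Normalised CPM of each member (log axis) in every library, by fraction and genotype, with 3 libraries and a mean bar per group. Open triangles at the foot of the axis mark libraries with 0 counts, which occurred for *Atf3* in 4 neuronal libraries. Microglial points lie above all others in each panel, and the WT and KIN points of *Egr1* separate in astrocytes.

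Comparing microglia with astrocytes asks how the levels of the members differ between the 2 positively selected glial fractions. Using edgeR's quasi-likelihood test with Benjamini-Hochberg adjustment over all genes, genes with a log2 fold change (log2FC) of 1 or more in either direction were called where the adjusted p did not exceed 0.05. All 10 members were called higher in microglia, against 14.9% of 13552 genes tested, and all 10 had no overlap between the fractions, against 22.1%. *Atf3* passed the filter on low counts (at least 5 in at least 2 libraries) only through the microglial libraries, so its call was in part set by the filter, and the other 9 also passed it within astrocytes. The median log2FC of these 9 was 3.22, against -0.02 over all genes, and the adjusted p of all 10 lay between 5.4e-48 and 2.4e-15. The largest difference was that of *Zfp36*, the mRNA decay factor. Its WT astrocyte libraries held 4.23, 3.25 and 3.44 CPM and the KIN ones 6.04, 3.07 and 4.59 CPM. The WT microglial libraries held 338, 290 and 323 CPM and the KIN ones 289, 371 and 338 CPM. Fitted over both genotypes together, the level in microglia was 77.3-fold higher (log2FC 6.27, SE 0.24). *Atf3*, a stress-induced partner of AP-1 proteins, had WT levels of 30.9, 31.7 and 35.2 CPM and, in KIN, 50.7, 41.9 and 46.6 CPM. In astrocytes it had 0.383 to 1.62 CPM, with 16 counts over 6 libraries, of which 4 were at or under the floor. Its difference was estimated as log2FC 5.34 (SE 0.28), from few astrocyte counts.

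The AP-1 members differed less, and unevenly. *Junb*, which can dampen transcription by c-Jun, had 119, 132 and 103 CPM in WT microglia and, in KIN, 136, 146 and 137 CPM, against 5.95 to 11.3 CPM in astrocytes (log2FC 4.06, SE 0.21). *Jun*, encoding c-Jun, had 79.1 to 115 CPM in microglia against 7.05 to 15.0 CPM in astrocytes (log2FC 3.22, SE 0.20). *Fos* had 72.5 to 105 CPM against 8.46 to 28.8 CPM (log2FC 2.34, SE 0.19). *Fosb*, the other FOS family member of the panel, showed the smallest difference, with 49.99 to 77.0 CPM in microglia against 8.81 to 27.9 CPM in astrocytes (log2FC 1.79, SE 0.19). On its most counted transcript alone, one annotated as a retained intron, the *Fosb* difference was 0.77 and was not called. For these 4 genes the lowest microglial library was still above the highest astrocyte library. The zinc finger factor *Egr1* held 208, 193 and 211 CPM in WT microglia and, in KIN, 186, 208 and 170 CPM (log2FC 3.31, SE 0.20 against astrocytes). The remaining members were likewise higher in microglia, with log2FC 3.59 for *Btg2*, an antiproliferative cofactor of mRNA deadenylation, 3.09 for the nuclear protein gene *Ier2* and 2.50 for *Dusp1*.

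Comparing neurons with microglia, a contrast that shares the microglial libraries with the former, all 10 members were called lower in neurons, against 17.2% of genes, and all 10 had no overlap, against 15.0%. *Atf3* again passed the filter only through microglia. The median log2FC of the other 9 members was -2.56 against -0.15 over all genes. Among the 9 members given a size, *Zfp36* was again farthest, with log2FC -5.51 (SE 0.24), from 5.12 to 10.8 CPM in WT and 4.05 to 7.69 CPM in KIN neurons. *Egr1* was nearest, with log2FC -1.26 (SE 0.18), a 2.39-fold lower level. *Atf3* had 0 counts in 4 of 6 neuronal libraries and 2 and 4 counts in KIN replicates 1 and 2. No size is given for its difference, because 5 of the 6 libraries were at or under 3 counts. Values for the other members were -3.34 for *Fos*, -3.26 for *Junb*, -2.64 for *Btg2*, -2.56 for *Jun*, -2.20 for *Dusp1*, -2.16 for *Fosb* and -1.89 for *Ier2*.

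The comparison of neurons with astrocytes did not give 1 direction for the panel. Here 2 members were called higher in neurons, against 11.4% of all genes, and 1 was called lower, against 19.3%, while 1 member had no overlap, against 15.7%. The median log2FC over all genes in this contrast was -0.27, and that of the members was 0.72. *Egr1* had 57.2, 86.0 and 59.8 CPM in WT neurons and 108, 96.3 and 91.0 CPM in KIN neurons, all above the 10.9 to 34.8 CPM of the 6 astrocyte libraries (log2FC 2.05, SE 0.20, edgeR adjusted p 1.1e-16). *Ier2* had 5.40, 7.17 and 12.0 CPM in WT and 7.98, 2.43 and 8.33 CPM in KIN neurons, against 2.19 to 4.604 CPM in astrocytes (log2FC 1.21, SE 0.33; 0.98 and not called in a fit of single transcripts). Its libraries overlapped through KIN neuronal replicate 2, which held 3 counts. *Fos* was the one member lower in neurons (log2FC -1.002, SE 0.26), at the edge of the fold limit. Its neuronal libraries, at 3.24 to 12.0 CPM, overlapped the WT astrocyte libraries but lay below all KIN ones. The fitted value came to between -0.79 and -0.9977 and lost the call when WT replicate 2 or KIN replicate 1 of astrocytes, or WT replicate 1, WT replicate 2 or KIN replicate 2 of neurons, was left out. *Jun* (0.67), *Junb* (0.80), *Btg2* (0.95) and *Zfp36* (0.77) passed the adjusted p but not the fold limit. *Btg2* gained the call, at 1.004 to 1.09, when WT replicate 2, WT replicate 3 or KIN replicate 2 of astrocytes, or WT replicate 1, WT replicate 2 or KIN replicate 2 of neurons, was left out, and at 1.11 with genes of a mean under 10 counts removed. *Fosb* (-0.37, 95% interval -0.83 to 0.09) and *Dusp1* (0.30, interval -0.19 to 0.80) passed neither. *Atf3* was at or under the floor in 4 astrocyte and 5 neuronal libraries and gives no order. The neuronal fraction differed from astrocytes in depth and in red blood cell transcripts as given above, and the part of these in the result was not tested.

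**Figure D2:**
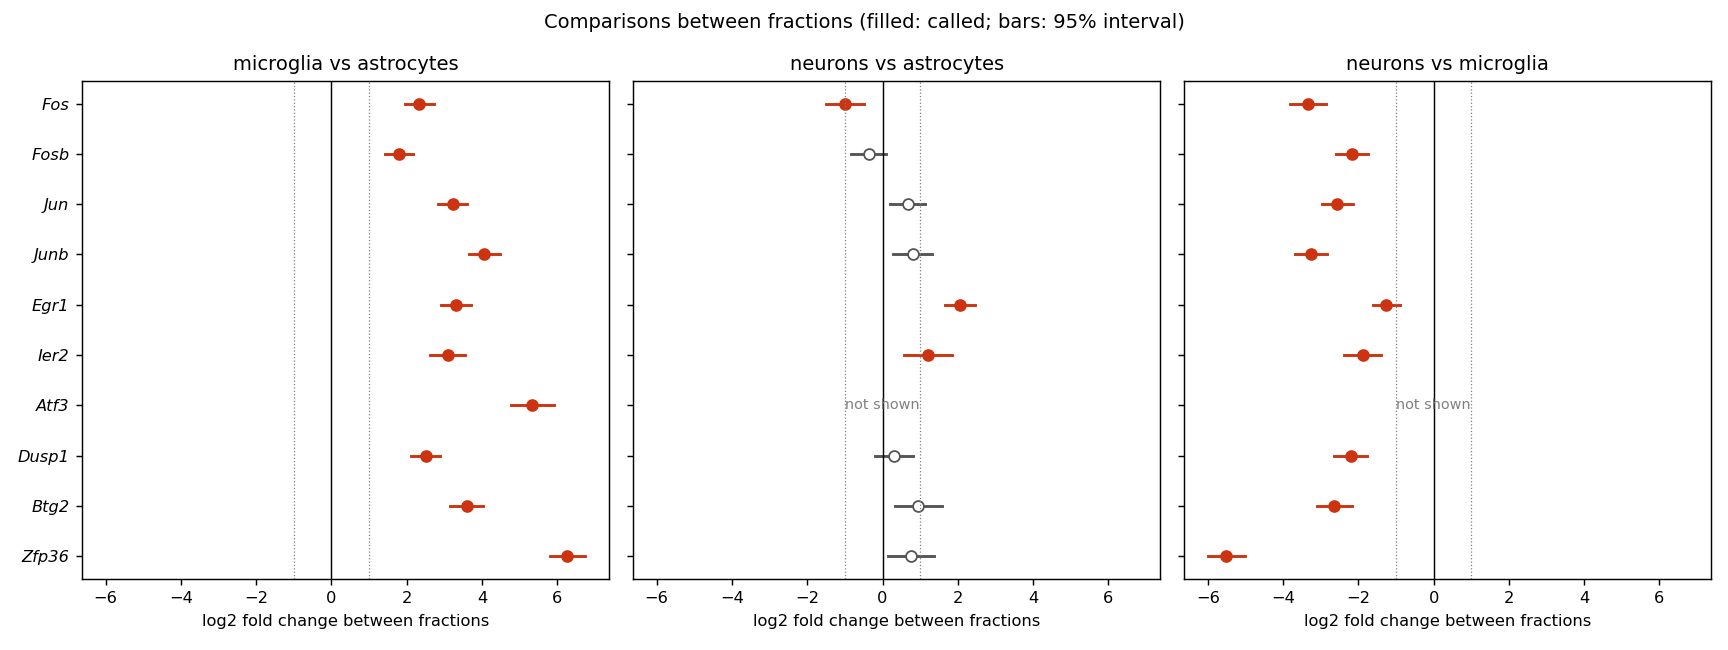
Fitted log2FC of each member (horizontal axis) in the 3 comparisons between fractions, over both genotypes. Points are estimates, bars 95% intervals, filled points called genes and dotted lines the fold limit. *Atf3* is not shown where neurons enter. Microglia stand apart from both other fractions in every member, from 1.79 for *Fosb* (0.77 and not called on its most counted transcript alone) to 6.27 for *Zfp36* against astrocytes.

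The members lie on 7 mouse chromosomes (GRCm39, GENCODE canonical transcripts). *Jun* (chr4:94937271-94940459), *Junb* (chr8:85703539-85705347) and *Ier2* (chr8:85387960-85389483) have 1 exon each, *Egr1* (chr18:34992876-34998049), *Btg2* (chr1:134002908-134006858) and *Zfp36* (chr7:28076209-28079710) have 2, and *Fos* (chr12:85520658-85524047), *Fosb* (chr7:19036621-19043976), *Atf3* (chr1:190902493-190915537) and *Dusp1* (chr17:26724564-26727493) have 4. *Fos* and *Egr1* are on the plus strand and the other 8 on the minus strand. Counts were deposited per transcript, so the summed values can be opened by isoform. *Ier2* and *Btg2* have 1 transcript in the table, and for *Fos*, *Junb*, *Egr1* and *Zfp36* the canonical transcript took 78.6, 94.7, 88.4 and 83.1% of all counts of the gene. *Jun* was divided almost evenly between 2 transcripts, 50.3 and 49.7%, and canonical *Atf3* took 56.6%. *Fosb* and *Dusp1* differed from these. The most counted of the 7 *Fosb* transcripts was one annotated as a retained intron, with 35.9% of counts against 14.5% for the canonical one. One retained-intron transcript likewise led the 6 of *Dusp1*, with 35.95% against 34.4%. Per the study's methods, reads were aligned to transcript sequences with Bowtie2 and assigned per transcript by HTSeq in its union mode, with no minimum alignment quality. Reads that fit several transcripts of a gene were thus not dropped for low alignment quality, and the shares describe the deposited table.

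The retained-intron share of *Fosb* was lowest in microglia. In microglia it was 29.5, 35.6 and 27.6% in the WT libraries against 27.2, 26.0 and 25.3% in the KIN libraries. In astrocytes it was 56.0, 62.5 and 69.2% in WT and 39.2, 40.8 and 59.6% in KIN. In neurons it was 64.3, 78.6 and 85.7% in WT and 66.7, 45.5 and 58.3% in KIN, from only 7 to 24 *Fosb* counts per library. No microglial library reached the lowest astrocyte library. In astrocytes the 3 KIN libraries overlapped the WT ones by a single KIN library at 59.6%. Leaving this transcript out, *Fosb* counts were 11, 21 and 12 in WT and 59, 29 and 23 in KIN astrocytes, or 4.82 ± 1.73 and 13.5 ± 4.24 CPM (SD, n = 3), without overlap. For *Dusp1*, the 2 retained-intron transcripts together took 35.3 to 44.0% in WT and 51.2 to 75.0% in KIN astrocytes, and 36 to 47.1% in microglia, from 12 to 43 counts in an astrocyte library. Leaving these 2 out, *Dusp1* counts were 22, 23 and 14 in WT and 21, 5 and 5 in KIN astrocytes. In CPM this was 6.53 ± 1.87 in WT and 3.50 ± 2.22 in KIN (SD, n = 3), with overlap.

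**Figure D3:**
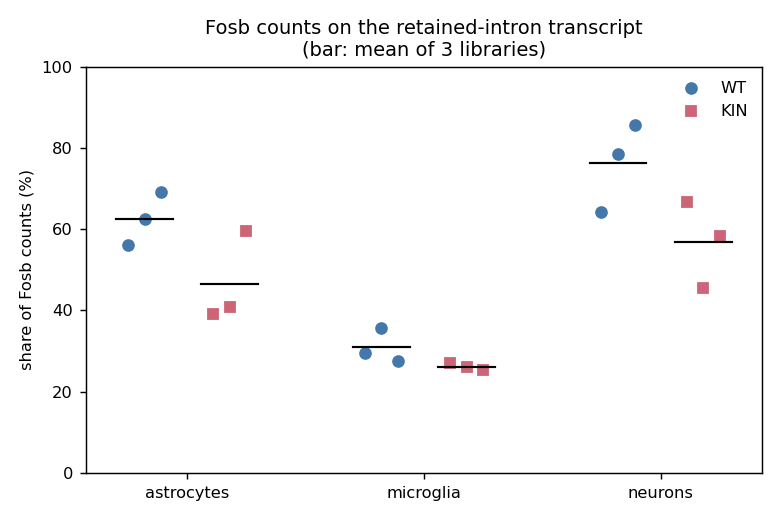
Share of *Fosb* counts (vertical axis, %) on the retained-intron transcript in each library, by fraction and genotype, with the mean of 3 libraries as a bar. The microglial libraries lie between 25.3 and 35.6%, below all astrocyte and neuronal libraries.

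KIN was then compared with WT within each fraction, the comparison the study was built for. In astrocytes, *Egr1* rose in KIN. Its WT libraries had 31, 42 and 37 counts, or 10.9, 13.6 and 11.6 CPM, and the KIN libraries 119, 68 and 71 counts, or 34.2, 34.8 and 27.2 CPM. Every KIN library lay above every WT library. Means were 12.0 ± 1.41 and 32.1 ± 4.25 CPM (SD, n = 3), a 2.62-fold increase (log2FC 1.39, SE 0.23, edgeR adjusted p 2.5e-05), and the call stayed whichever library was left out, at 1.32 to 1.499. Of 9 members tested, *Egr1* was the 1 called, against 8.85% of all 11751 genes tested, and 3 passed the adjusted p without the fold limit, against 11.9%. The groups did not overlap for 6 members, against 27.9% of genes. The median log2FC of the tested members was 0.65, against -0.01 over all genes.

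*Fos* and *Fosb* were the other 2 members that passed the adjusted p. *Fos* had 8.46, 18.2 and 9.70 CPM in WT and 28.8, 21.0 and 21.8 CPM in KIN astrocytes (log2FC 0.97, SE 0.25, edgeR adjusted p 0.00554). *Fosb* had 8.81, 18.2 and 12.2 CPM in WT and 27.9, 25.1 and 21.8 CPM in KIN (log2FC 0.91, SE 0.24, edgeR adjusted p 0.00724). In both genes WT replicate 2 was the highest WT library and came close to the KIN libraries, and neither reached the fold limit of 1. Without that library both were called, at log2FC 1.39 for *Fos* and 1.22 for *Fosb*, and *Fos* was also called without KIN replicate 2 (1.05) and both without KIN replicate 3 (1.04 and 1.01). *Jun* had 7.05, 7.79 and 10.3 CPM in WT and 15.0, 11.8 and 13.0 CPM in KIN (log2FC 0.65, SE 0.26, edgeR adjusted p 0.0965). *Ier2* had 7 counts in each WT library, 2.19 to 2.47 CPM, and 16, 8 and 9 counts in KIN, 3.44 to 4.604 CPM (log2FC 0.80, SE 0.42, edgeR adjusted p 0.227). The groups of *Jun*, *Ier2* and *Btg2* (log2FC 0.54) did not overlap, but none of these passed the adjusted p. *Junb* (0.16, interval -0.43 to 0.76), *Zfp36* (0.38, interval -0.36 to 1.11) and *Dusp1* (-0.22, interval -0.78 to 0.35) overlapped between genotypes, and *Atf3*, with 1 to 5 counts per library, was not tested.

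Markers of other cells also moved with genotype in the astrocyte fraction. The 7 neuronal markers summed to 37.3 to 109 CPM in WT and 31.7 to 52.4 CPM in KIN, with 5 of 7 called lower. The 6 astrocyte markers summed to 429 to 639 CPM in WT and 269 to 284 CPM in KIN, with 2 of 6 called lower, and 1 of 5 oligodendrocyte markers was called higher. The part of these markers in the *Egr1* result was not tested. The microglial markers, whose fraction had the highest member levels, summed to 5.52 to 9.70 CPM in WT and 4.03 to 7.16 CPM in KIN astrocytes, with 0 called among the 2 of 6 that were tested. *Aif1* and *P2ry12* had 0 counts in the WT and *Tmem119* in the KIN astrocyte libraries.

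In microglia, none of the 10 members was called between genotypes by edgeR or by DESeq2, against 1.52% of 10831 genes by edgeR. At an unadjusted p of at most 0.05 there was 1 member, *Atf3*, against 12.0% of genes, and 3 members had no overlap, against 16.0%. *Atf3* had 104, 64 and 83 counts in WT and 128, 117 and 134 counts in KIN, with all KIN libraries above all WT ones in CPM (log2FC 0.51, 95% interval 0.05 to 0.98, edgeR adjusted p 0.333). *Jun* had 113, 115 and 109 CPM in WT and 91.2, 79.1 and 93.6 CPM in KIN (log2FC -0.35, interval -0.80 to 0.09). *Junb* libraries did not overlap either, with the KIN ones above (log2FC 0.25, interval -0.20 to 0.70). These 3 differences were of 1.19 to 1.43-fold and did not pass the adjusted p. *Egr1*, called in astrocytes, had log2FC -0.12 with an interval of -0.56 to 0.33 and overlapping libraries. The other 6 members lay between 0.07 for *Zfp36* and 0.34 for *Ier2*, all with overlap, and the median over the 10 members was 0.14 against -0.00367 over all genes.

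In neurons, none of the 9 members tested was called by edgeR or DESeq2, against 0.0148% of 6765 genes by edgeR, a fraction in which only 1 gene was called. At an unadjusted p of at most 0.05 there was 1 member, *Dusp1*, against 5.04% of genes, and 2 had no overlap, against 13.9%. *Dusp1* had 17.3, 13.3 and 17.3 CPM in WT and 4.65, 10.5 and 12.2 CPM in KIN neurons (log2FC -1.01, 95% interval -1.83 to -0.18, edgeR adjusted p 0.871). It rested on 7 to 19 counts per library, and all KIN libraries were below all WT ones. *Egr1*, with 53, 84 and 45 counts in WT and 163, 119 and 142 counts in KIN, had no overlap in CPM scaled over 18 libraries (log2FC 0.33, interval -0.15 to 0.80, edgeR adjusted p 0.970). Scaled within the 6 neuronal libraries, as in the fit (a comparison added after seeing the data), its WT libraries at 52.4, 78.1 and 61.7 CPM overlapped the KIN ones at 87.1, 80.5 and 74.2 CPM. For the other 7 members the genotypes overlapped, with log2FC between -0.80 for *Zfp36* and 0.31 for *Junb*. The median over the 9 members was -0.53 against 0.04 over all genes in this fit. The signs of small values depended on the fit here. *Fosb* and *Jun*, at -0.01 and -0.16 in the fit of the 6 neuronal libraries, came to 0.19 and 0.05 in one fit of all 18 libraries, where the median of all genes was 0.24. Without the filter on low counts they came to 0.18 and 0.035, with a median of 0.26. The KIN neuronal libraries were also deeper than the WT ones, with 1473194 to 2017932 counts, and the part of depth was not tested.

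**Figure D4:**
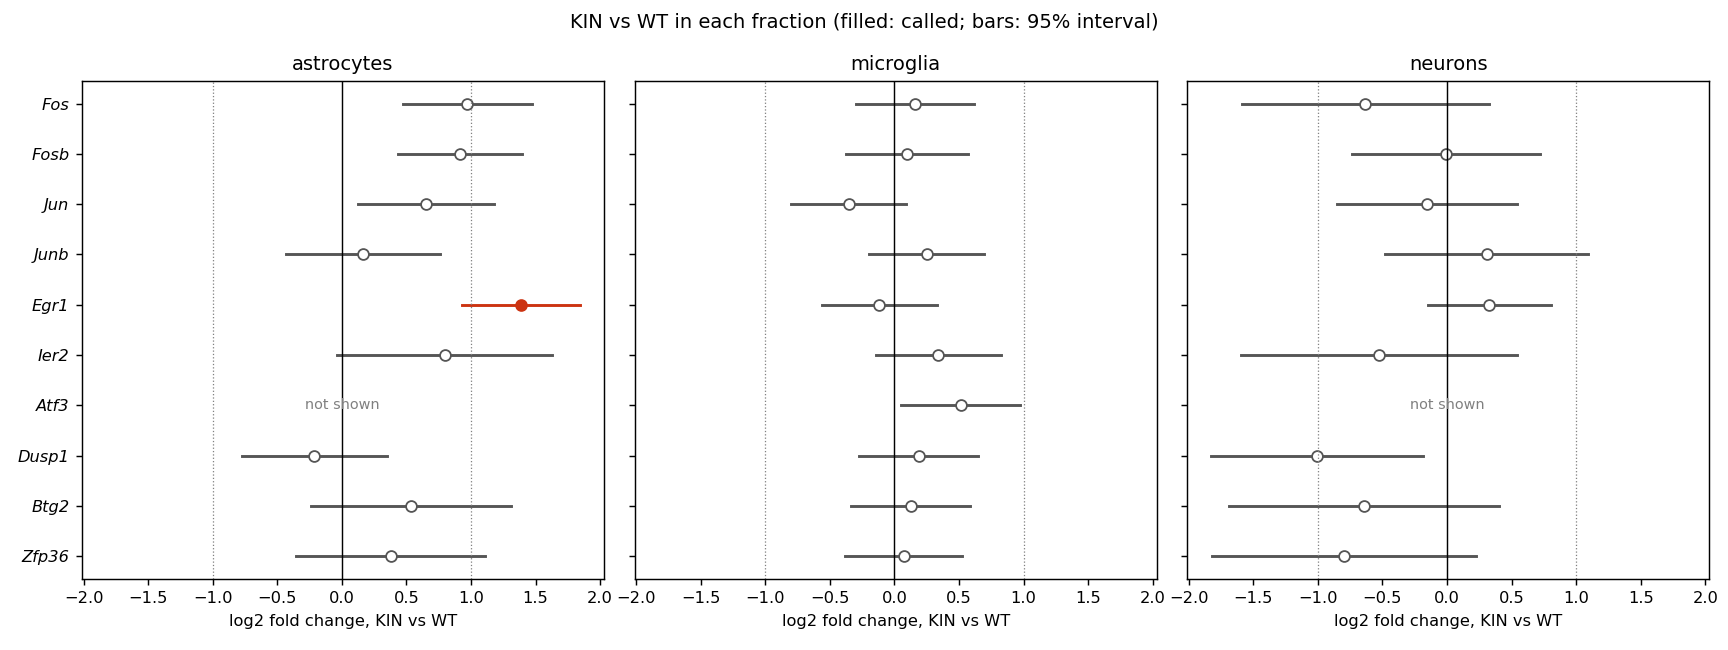
Fitted log2FC of KIN against WT for each member (horizontal axis), by fraction. Points are estimates, bars 95% intervals, the filled point a called gene and dotted lines the fold limit. *Egr1* in astrocytes, at 1.39, is the filled point, and intervals are widest in neurons, where counts were lowest.

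The effect of KIN was compared between fractions by the interaction term of a fit to the 12 libraries of the 2 fractions concerned. For *Egr1* the effect in microglia was lower than that in astrocytes by 1.52 on the log2 scale, written as log2FC -1.52 (SE 0.35, interval -2.21 to -0.82, edgeR adjusted p 0.0108). It was the 1 member of 10 called, against 0.392% of 13277 genes called lower. The call was lost without WT astrocyte replicate 1 (adjusted p 0.0529), without WT astrocyte replicate 3 (0.0626) or without KIN microglial replicate 3 (0.0519), at -1.44 to -1.47. *Fos* (-0.81), *Fosb* (-0.82) and *Jun* (-1.01) had unadjusted p below 0.05 in the same direction, which 13.2% of all genes passed in either direction, and adjusted p of 0.303, 0.286 and 0.157. Between neurons and astrocytes 0 of 9 members were called by edgeR, against 1.17% of genes, and 2 had an unadjusted p of at most 0.05, against 12.4%. These were *Fos* (-1.40, edgeR adjusted p 0.190) and *Egr1* (-0.87, edgeR adjusted p 0.292), of which DESeq2 called *Egr1* (-1.03, adjusted p 0.0357). Between neurons and microglia edgeR called 0 of 10 members, against 0.0778%, and 1 had an unadjusted p of at most 0.05, against 8.26%. This was *Dusp1* (-1.09, edgeR adjusted p 0.523), and DESeq2 called 0. All genes had a median of 0.27 and 0.18 in the last 2 of these comparisons, which share the neuronal libraries.

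Lists of related genes, also chosen with earlier results of these data known, were described beside the members, by counts only. The AP-1 and MAF partners were called higher in microglia than in astrocytes for 9 of 9 tested, the EGR, NR4A and KLF factors for 12 of 14, and the feedback inhibitors for 12 of 14, against 14.9% of all genes. Some of these passed the filter on low counts only through other fractions; of those that also passed it within astrocytes, 6 of 6, 9 of 10 and 9 of 11 were called. Among them were *Cebpb*, a partner of AP-1 in inflammation (log2FC 4.02), the early-response genes *Ier3* (4.07) and *Ier5* (3.84), the nuclear NF-kB modulator *Nfkbiz* (4.73) and the ERK phosphatase *Dusp6* (4.36). *Tnfaip3*, the ubiquitin editor A20, was at or under 3 counts in all 6 astrocyte libraries and was at least 24.7-fold higher in microglia, as mean against mean floor. Of 10 cytokines 9 passed the filter, but 0 within astrocytes and 1 within neurons, so their calls against microglia were largely set by the filter and are not counted here. *Ccl4* was at least 55.0-fold, *Ccl3* at least 30.4-fold and *Il1a* at least 16.6-fold higher in microglia, with all 6 astrocyte libraries at or under the floor. Of the heat shock genes 3 of 12 were called higher, among them *Hspa1b* (1.78) and *Dnajb1* (1.12, or 0.92 and not called without KIN astrocyte replicate 1), and a median of 0.00343. Of the kinases and factors upstream of the members 6 of 18 were called higher, such as *Rps6ka1*, an ERK-activated kinase (3.07), *Elk3* (1.83) and *Mrtfa* (1.56), with a median of 0.06. Of 4 neuronal activity-regulated genes tested 1 was called lower, against 18.3% of all genes, the synaptic gene *Arc* (log2FC -2.16), and 1 higher, *Vgf* (1.22, with overlapping libraries), which was chosen here after its values were seen.

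Between neurons and microglia the first 3 lists had 8 of 9, 11 of 14 and 10 of 14 tested genes called lower in neurons, against 17.2% of all genes, and 3 of 4, 4 of 5 and 7 of 9 among those that passed the filter within neurons, with *Nr4a1* (-3.65), *Nfkbia*, the NF-kB inhibitor (-4.09), and *Jund* (-1.95) as examples. The heat shock list had 5 of 12 called lower (3 of the 9 that passed within neurons), among them *Hspa1b* (-2.39) and *Hspa1a* (-1.97). The upstream kinases and factors had 6 of 18 called lower, but 1 of the 11 that passed within neurons. In the other direction, in which 10.3% of all genes were called, 1 feedback inhibitor, *Dusp2* (1.28), and 1 neuronal activity-regulated gene, *Homer1* (1.36), were called higher in neurons, with overlapping libraries, and were chosen here after their values were seen. Between neurons and astrocytes, 5 of 12 heat shock genes were called lower, against 19.3% of all genes, such as the chaperones *Hsp90aa1* (-1.09, or -0.98 without WT neuronal replicate 2) and *Hspa8* (-1.07, or -0.997 without KIN astrocyte replicate 2). With genes of a mean under 10 counts removed, *Hsp90aa1* (-0.93) and *Hspa8* (-0.91) also lost the call. In the same contrast 3 of 14 feedback inhibitors were called higher, against 11.4% of all genes, of which *Btg1* had log2FC 2.37, and 1 was called lower. Of the EGR, NR4A and KLF factors 2 of 14 were called higher, among them *Klf6* (1.82), and 0 lower. The AP-1 and MAF partners had 0 called higher and 1 lower of 9, and the upstream kinases and factors 1 higher and 2 lower of 18. Of 4 neuronal activity-regulated genes 1 was called higher in neurons, the synaptic scaffold gene *Homer1* (1.25, with overlapping libraries, chosen after its values were seen), and 1 lower. The latter, *Arc*, had at most 3 counts in each of the 6 neuronal libraries and was at least 2.91-fold higher in astrocytes.

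Between genotypes, 0 genes of any of these lists were called in astrocytes or neurons by edgeR or DESeq2. At an unadjusted p of at most 0.05, edgeR gave 13 of the 61 tested in astrocytes, a share below the 24.9% of all genes, and 2 of the 40 tested in neurons, near the 5.04% of all genes. In microglia 25 of the 78 tested had an edgeR unadjusted p of at most 0.05, against 12.0% of all genes. Of the 78, edgeR called 6, against 1.52% of all genes. DESeq2 called 3 of these (*Il1b*, *Ccl4* and *Hspa1a*) and gave no adjusted p for *Cxcl10*, *Gadd45b* and *Egr2*. *Il1b*, the interleukin 1 beta gene, had 36, 15 and 21 counts in WT and 80, 89 and 72 counts in KIN (log2FC 1.69, SE 0.25, edgeR adjusted p 0.000394). *Gadd45b*, a stress and growth arrest gene, had 17, 15 and 15 counts in WT and 51, 41 and 39 counts in KIN (log2FC 1.39, edgeR adjusted p 0.0111). *Cxcl10* had 5, 4 and 2 counts in WT and 18, 15 and 14 counts in KIN (log2FC 1.99, edgeR adjusted p 0.0172). All KIN libraries were above all WT ones in these 3 genes, as in *Ccl4* (log2FC 1.07) and *Egr2*, the paralogue of *Egr1* (log2FC 1.19, edgeR adjusted p 0.0378). *Hspa1a*, the inducible heat shock protein 70 gene, went the other way, with 172, 47 and 106 counts in WT and 46, 27 and 54 counts in KIN (log2FC -1.36, edgeR adjusted p 0.0134). In CPM its KIN libraries were all below the WT ones. *Il1b* was called whichever of the 6 microglial libraries was left out. *Hspa1a* and *Cxcl10* were still called only without WT replicate 2, *Egr2* only without WT replicate 1, *Gadd45b* only without WT replicate 2 or KIN replicate 3, and *Ccl4* only without WT replicate 1 or 2. With genes of a mean under 10 counts removed, *Egr2* also lost the call (log2FC 1.17, edgeR adjusted p 0.0582). Border macrophage markers summed to 4.45 to 5.93 CPM in WT and 9.51 to 12.5 CPM in KIN microglia, with 0 of 3 tested called, and neuronal markers to 13.4 to 49.6 CPM in WT and 6.61 to 8.32 CPM in KIN, with 3 of 7 called lower. Their part in these differences was not tested.

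**Figure D5:**
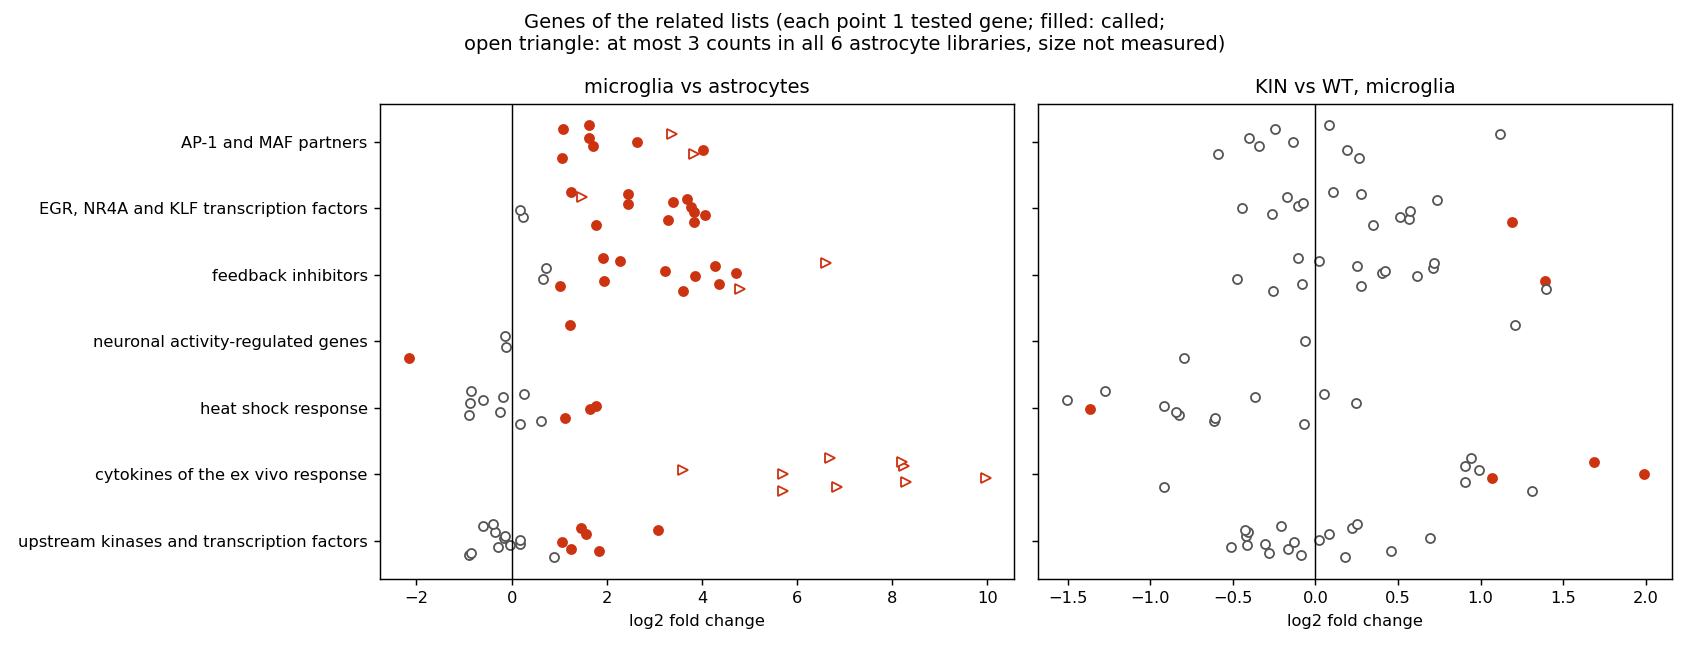
Fitted log2FC (horizontal axes, of different range) of every tested gene of 7 related lists, for microglia against astrocytes and for KIN against WT in microglia. Filled points were called, and open triangles had at most 3 counts in all 6 astrocyte libraries, so their size was not measured. The first 3 lists lie mostly right of 0 in the fraction comparison, as do the cytokines, of which 0 passed the filter within astrocytes, while 6 genes are filled in the genotype comparison.

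The members' mean log2 CPM was set against the 4988 other genes with a mean of at least 10 counts. Only the highest correlations are given, and how high a search of 4988 genes reaches by chance was not tested. Over the 18 libraries the highest Pearson correlations were those of *C1qa* and *Aif1* (both 0.985), *Ier5* (0.984), *P2ry6* (0.983) and *Cd300c2* (0.982). The 18 points share the division into 3 fractions. With the mean of each fraction and genotype subtracted, the highest were *Lpcat1* (0.824), *Slc43a2* (0.817), *Mta2* (0.786), *Itga10* (0.777) and *Gm21988* (0.763), over the same 18 libraries. Over the 45 pairs of members the correlation of these deviations ranged from -0.669 to 0.711, with a median of 0.0568 and 23 pairs above 0. Over the 6 libraries of a fraction the median was 0.179 in astrocytes, with 31 pairs above 0, -0.0109 in microglia, with 21, and -0.0925 in neurons, with 21.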

How the data were processed

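RNA of 3 fractions from dissociated mouse brain was profiled by 3′-end sequencing with molecular identifiers after ribosomal RNA depletion. Per the labels and the study's methods, the authors trimmed reads with cutadapt 4.6, aligned them to mm39 transcript sequences with Bowtie2 2.4.4, counted them per transcript without strand information with HTSeq 2.0.2 and deposited a table of 116873 transcripts. The raw count columns of the 18 libraries were used; 36 per-sample columns of normalised values and the authors' fold changes and p-values were not. Because strand was not used, reads of antisense genes cannot be told apart.

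Counts were summed by gene name, and 137 entries without a name were kept by transcript. Genes with at least 5 counts in at least 2 libraries were tested with edgeR 4.0.16 (TMM scaling, R 4.3.3, limma 3.58.1), within a fraction on 6 libraries, between fractions on all 18, and for interactions on 12. Replicates are labelled as biological, and the fractions were taken in sequence from single brains, but which libraries share a mouse is not stated, so they were treated as independent and p-values measure the spread between these libraries. DESeq2 1.42.0, other scalings, filters, a replicate block and leaving out each library were tried. On simulated counts with a log2 change of 2, edgeR recovered 135 of 183 changed genes for astrocytes, 147 of 170 for microglia and 87 of 151 for neurons. Standard errors were derived from the F statistic; bounds of folds set the mean CPM against the mean floor of 3 counts per library. Intervals were computed from these errors and carry the spread between libraries, whereas floors of counts cover counting error only.

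Named genes were the 10 members, up to 3 called genes without overlap of largest change per related list and comparison, and the 5 genes most correlated with the members by each of 2 measures. Members and lists were chosen with earlier results of these data known. Promoter windows of all 10 members, placed by GENCODE canonical transcripts on GRCm39, were searched, and 6 are printed.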

Additional observations from a re-analysis of the deposited data

Results flagged for a closer look

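The KIN effect on *Egr1* differed between microglia and astrocytes, by an interaction log2FC of -1.52 (edgeR adjusted p 0.0108, SE 0.35). It was 1.39 in astrocytes, where all 3 KIN libraries were above all 3 WT ones, and -0.12 in microglia, where they overlapped. The call was lost without WT astrocyte replicate 1 (adjusted p 0.0529), WT astrocyte replicate 3 (0.0626) or KIN microglial replicate 3 (0.0519). In neurons the effect was 0.33, without a call.

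*Vgf*, which encodes a secreted neuropeptide precursor regulated by neuronal activity, differed between the same fractions by an interaction log2FC of 2.82 (edgeR adjusted p 0.0429, SE 0.76). DESeq2 gave it 2.94 but no adjusted p, so it was not called by that tool. It had 12, 2 and 11 counts in WT and 3, 2 and 2 counts in KIN astrocytes (log2FC -1.63, adjusted p 0.0866). In microglia it had 11, 2 and 6 counts in WT and 17, 20 and 9 counts in KIN (log2FC 1.21, adjusted p 0.191). The call was lost when any one library was left out other than WT astrocyte replicate 2, WT microglial replicates 1 and 3 and KIN microglial replicate 3, and its adjusted p ranged from 0.00607 to 0.181 over the 12 libraries. The cause of either difference was not tested.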

How the results depend on the processing

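Of the members' results under other settings, 1708 kept their direction and side of the threshold, 12 lost and 22 gained a call, and 31 changed sign; the cause was not tested. All 10 members stayed called in microglia against both other fractions when any library was left out. Members called between genotypes in astrocytes numbered 1, 3 by adjusted p alone, 2 in the replicate block (*Egr1* and *Fos*, 1.01) and 1 to 3 without a library; neurons against astrocytes gave 3, 7 by adjusted p alone and 2 to 4 without a library. The microglia minus astrocytes interaction gave 1, and 0 to 2 without a library; neurons minus astrocytes gave 0, but 1 with DESeq2 (*Egr1*, -1.03) and 0 to 1 without a library (*Fos*, -1.82, without WT astrocyte replicate 2). Without genes of a mean under 10 counts *Fos* in neurons against astrocytes came to -0.84, and in the block to -0.99. In a fit of single transcripts, with the one of highest mean taken per gene, *Fosb* in microglia against astrocytes came to 0.77, and *Ier2*, which has 1 transcript, came to 0.98 in neurons against astrocytes, where the median of all features was -0.62 instead of -0.27; both lost the call.

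Signs turned in that fit for *Dusp1* (0.35 in KIN astrocytes, -0.24 in neurons against astrocytes, -0.22 in microglia minus astrocytes), *Fosb* (-0.19) and *Zfp36* (-0.022) in KIN microglia, and *Zfp36* in neurons minus microglia (0.092). In KIN neurons *Fosb* turned to 0.011 without the 10 most abundant transcripts, 0.18 without a filter, 0.00055 in the block and 0.19 over 18 libraries, and *Jun* to 0.035 without a filter and 0.050 over 18 libraries; *Fosb* in neurons minus microglia turned to 0.0057 without a filter. Without 1 library, signs turned for *Junb* in KIN astrocytes (-0.063 to 0.37), *Fosb* (-0.032 to 0.23) and *Zfp36* (-0.0072 to 0.16) in KIN microglia, *Fosb* (-0.17 to 0.14) and *Jun* (-0.37 to 0.029) in KIN neurons, *Junb* in microglia minus astrocytes (-0.12 to 0.29), and *Fosb* (-0.15 to 0.18) and *Junb* (-0.052 to 0.46) in neurons minus microglia.

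Counts of all called genes moved by over 1.5 times: astrocytes 1040, DESeq2 416; microglia 165, DESeq2 48, unfiltered 276, mean filter 95; neurons 1, with 0 to 28 elsewhere; microglia against astrocytes 4496, mean filter 1782, transcripts 7965; neurons against astrocytes 4170, 1855 and 6716; neurons against microglia 3729, 1809 and 5791; microglia minus astrocytes 155, DESeq2 95, block 344; neurons minus astrocytes 144 (113 higher), DESeq2 61, mean filter 52, block 58, DESeq2 size factors 88 (53 higher); neurons minus microglia 9, with 1 to 38 elsewhere. Same-numbered KIN and WT libraries deviated with r from -0.141 to 0.0946 in 9 pairs, 0 above 0.1. Same-numbered libraries of different fractions, which may share a brain, gave -0.0664 to 0.252 in 18 pairs, 2 above 0.1, both among WT astrocytes and microglia (0.0657 to 0.252). The numbers were not taken as pairing. Related-list genes were rerun under settings chosen after seeing the data; 24 of 74 results in KIN microglia lost their call, and 5 of 1044 between fractions. *Atf3* could not be tested within astrocytes or neurons at this depth.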
